A study of Mus musculus with 4 samples.

Results

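The genes described here encode the WAVE complex and the proteins of actin nucleation around it. The list names 10 genes (Wasf1, Wasf2, Wasf3, Wasl, Cyfip1, Nckap1, Abi1, Abi2, Actr2 and Actr3), and every probe set that the array annotation assigns to exactly 1 of them was taken. That gave 20 probe sets of 8 genes, out of 34945 probe sets with a single gene, for 18193 genes, on the array. Cyfip1 and Actr2 were not analysed here. The genes were picked on the signal differences between the groups compared here, together with their known roles, so the counts below describe them and are no independent support.

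RNA was measured in C2C12 cells, a mouse line of skeletal myoblasts, with 1 Affymetrix mouse array for each culture. All cultures carried the pLKO.1 lentiviral vector, were kept under 2 ug/ml puromycin and grew in medium with 20% serum. In 2 control cultures, titled vector control, the vector expressed a control short hairpin RNA (shRNA). The labels call this hairpin scramble in one field and shLuc in another. In 2 knockdown cultures it expressed shSFMBT1, an shRNA against the MBT-repeat chromatin gene Sfmbt1. The labels give each group as 2 independently cultured replicates and name a single construct against Sfmbt1. They do not say whether the cultures came from separate transductions or clones, so the p-values cover no variation beyond such cultures. These p-values rest on the spread between the cultures together with a variance that limma drew from all tested probe sets.

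Branched actin networks are built by the Arp2/3 complex, which stays inactive until a nucleation-promoting factor engages it. The WASF (WAVE) proteins are such factors and are held inactive in a complex with CYFIP, NCKAP1, ABI and BRK1 proteins until the GTPase Rac binds the complex. N-WASP, encoded by Wasl, is the related factor that responds to Cdc42. In myoblasts these actin networks drive lamellipodia and take part in cell fusion.

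Sfmbt1 itself, the targeted gene, had a lower signal on both knockdown arrays than on both control arrays in each of its 5 probe sets. Probe set 1422894 read 241.7 and 277.9 in control cultures against 74.6 and 16 under knockdown (adjusted p = 0.0219, limma), with 1 knockdown array in the background range. The other 3 tested probe sets of Sfmbt1 did not pass, with knockdown means at 43.7%, 67.7% and 69.2% of the control. Probe set 1443853 of Sfmbt1 lay in the background range on all 4 arrays and was not tested. All 8 myoblast markers (Myod1, Myf5, Des, Cdh15, Vcam1, Itga7, Met and Musk) lay above background on every array by the brightest probe set of each gene. A dimmer probe set of Myod1, 1447675, lay in the background range on 3 arrays and was not tested. Of the 12 tested probe sets of these markers 9 had a negative difference, and 1 was called lower. That was a probe set of the receptor gene Met (1422990, log2 -0.74, limma adjusted p = 0.0233), whose other probe set did not pass (log2 -0.51, adjusted p = 0.0747). The summed signal of the myoblast markers was 15566.7 and 17394.8 in control cultures against 15044.6 and 15751.0 under knockdown. The summed signal of 8 markers of differentiating muscle was 1430.4 and 1437.3 in control cultures against 5925.1 and 6041.5 under knockdown, and 6 of them (Myog, Myh3, Myl1, Acta1, Tnnt3 and Mymk) rose, while Mymx lay in the background range throughout. The remaining marker, Ckm, did not pass, with log2 differences of 0.38 (adjusted p = 0.567) and -0.25 (adjusted p = 0.641) in its probe sets. Of 8 markers of leukocytes, endothelium, epithelium and fat, Ptprc, Pecam1 and Adipoq lay in the background range on every array. By the brightest probe set of each gene, Cd68, Csf1r, Epcam and Krt8 lay above background on every array. Other probe sets of Epcam and Krt8 lay in the background range throughout. The remaining gene, Cdh5, read 75.8 and 38.6 in control cultures against 87.7 and 84.7 under knockdown in its brighter probe set. That probe set lay in the background range on 1 array and did not pass (limma adjusted p = 0.62). The summed signal of the 8 markers was 1512.6 and 1227.3 in control cultures against 1417.0 and 1731.5 under knockdown. Median signals of the arrays lay between 92.8 and 102.7, and probe sets above background made up 56.2% on knockdown replicate 1 and 64.3% to 67.6% on the other arrays. In such bulk cultures a change in the share of cells that express a gene and a change in RNA per cell cannot be told apart.

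Wasf2, which encodes WAVE2, was the member that rose in the knockdown, in both of its probe sets. No probe set of Wasf1, Wasf3, Nckap1, Abi1, Abi2, Wasl or Actr3 passed the test. Of the 20 probe sets, 17 had a mean signal above the limit for testing, and among these 2 were higher, 0 were lower and 15 did not pass (limma, Benjamini-Hochberg adjusted p under 0.05 over 22893 probe sets). At an unadjusted p under 0.05, which 15.5% of all tested probe sets reached, the counts were also 2 higher and 0 lower. Over all tested probe sets 0.961% were called higher and 1.43% lower, and both calls among the members come from Wasf2. The median log2 difference, knockdown minus control, was 0.10 over the 17 probe sets and -0.01 over all probe sets tested.

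The start-proximal sequence of Wasf2 is shown with those of its paralogues Wasf1 and Wasf3, because these 3 genes encode alternative forms of the WAVE subunit and only Wasf2 had probe sets that passed. Each is the 250 bases before the RefSeq start of the gene in GRCm38.p6, on the plus strand, written 5′ to 3′. Capitals mark matches, on either strand, to the E-box CANNTG, the GC box GGGCGG and the CCAAT box.
Wasf2, chr4:133130383-133130632: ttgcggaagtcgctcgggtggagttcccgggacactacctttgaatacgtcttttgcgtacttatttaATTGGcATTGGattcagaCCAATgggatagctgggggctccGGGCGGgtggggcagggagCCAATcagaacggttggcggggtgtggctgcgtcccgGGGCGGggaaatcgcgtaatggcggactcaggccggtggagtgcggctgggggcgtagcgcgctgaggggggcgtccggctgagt
Wasf1, chr10:40883284-40883533: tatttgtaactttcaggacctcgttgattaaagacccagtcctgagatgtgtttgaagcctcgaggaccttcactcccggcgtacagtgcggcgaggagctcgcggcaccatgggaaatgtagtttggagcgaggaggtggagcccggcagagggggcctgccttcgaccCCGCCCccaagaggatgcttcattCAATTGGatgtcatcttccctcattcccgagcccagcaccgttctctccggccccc
Wasf3, chr5:146384756-146385005: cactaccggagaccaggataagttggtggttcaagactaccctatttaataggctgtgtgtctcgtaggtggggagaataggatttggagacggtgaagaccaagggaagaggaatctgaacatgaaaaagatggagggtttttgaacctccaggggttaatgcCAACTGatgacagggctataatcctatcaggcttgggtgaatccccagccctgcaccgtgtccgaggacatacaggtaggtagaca
The Wasf2 window held 4 CCAAT boxes and 2 GC boxes and no E-box. The CCAAT boxes began 182, 176, 164 and 122 bases before the start, and the GC boxes 141 and 85 bases before it. At least 4 CCAAT boxes occurred in 0.84% of 32851 RefSeq promoter windows of the same length, and at least 2 GC boxes in 16.7%. The Wasf1 window held 1 match of each motif, with its E-box and its CCAAT box overlapping, and the Wasf3 window held 1 E-box and neither of the others. At least 1 E-box was found in 66.2% of all windows, 1 GC box in 32.7% and 1 CCAAT box in 33.9%. The share of G and C was 63.2% in Wasf2, 58.4% in Wasf1 and 49.2% in Wasf3, against a median of 52.4% over all windows, and CG pairs numbered 23, 15 and 5. The YY1 motif GCCATNTT, present in 3.91% of windows, and the TATA box TATAAA, present in 12.4%, had no match in any of the 3 windows. These matches describe the letters of the reference and were not tied to the signals by any test.

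Probe set 1454673 of Wasf2 read 1468.9 and 1599.7 in control cultures against 3611.7 and 3929.3 under knockdown. Both knockdown cultures lay well above both controls, and the spread within each group was small beside the gap. The group means were 1534 ± 92.5 and 3770.5 ± 225 (SD, n = 2 each), 2.46-fold apart. On the log2(signal + 16) scale the difference was 1.29 (SE 0.12, limma adjusted p = 6.99e-04), with a 95% interval of 1.02 to 1.56. This scale adds a constant of 16 to each signal and so understates the change of dim probe sets.

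The second Wasf2 probe set, 1438683, read 640.7 and 735.5 in control cultures against 1306.2 and 1321.3 under knockdown. Here too the groups were apart, and the knockdown cultures nearly coincided. The means of 688 ± 67.0 and 1314 ± 10.7 (SD, n = 2 each) differed 1.91-fold, or by 0.92 on the log2 scale (SE 0.14, limma adjusted p = 0.0077), with an interval of 0.61 to 1.23. Of all 220 probe sets called higher, the Wasf2 probe sets stood at places 55 and 96 by the size of the log2 difference. The 2 probe sets read the same RNA and are not replicates of each other.

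**Figure D1:**
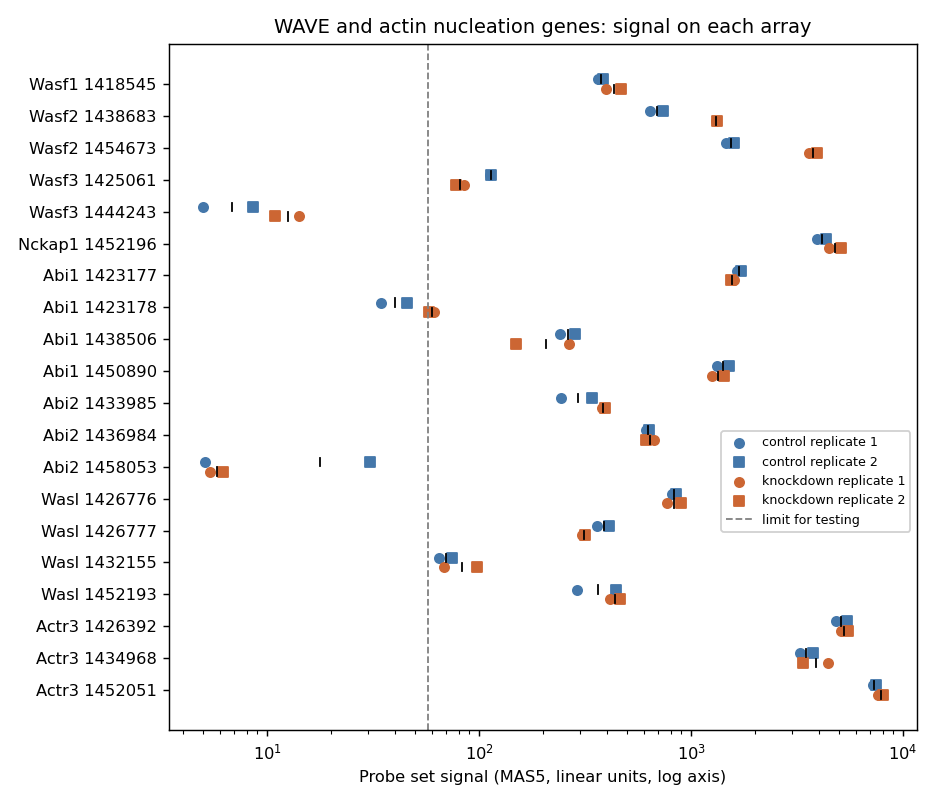
Signal of the 20 probe sets on each of the 4 arrays, in linear MAS5 units on a log axis, with circles for replicate 1, squares for replicate 2 and black ticks for group means of control (blue) and knockdown (orange); the dashed line is the limit for testing, a signal of 57.3. In both Wasf2 probe sets the knockdown arrays lie to the right of the control arrays, 3611.7 and 3929.3 against 1468.9 and 1599.7 in probe set 1454673.

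The Wasf2 difference was present whichever array was left out. Without each array in turn, the log2 difference of probe set 1454673 lay between 1.23 and 1.35 and that of 1438683 between 0.82 and 1.02. A group left with a single array was taken to vary like the other group. Only the sizes are therefore given here for these fits. Median centring of the arrays gave 1.33 and 0.96, and quantile normalization 1.27 and 0.93. Without the variance trend the sizes were the same but neither probe set passed (adjusted p = 0.165 and 0.227), and in that fit limma called 0 probe sets on the whole array and 2913 at an unadjusted p under 0.05. Without the filter on dim probe sets 1454673 passed (adjusted p = 0.0184) and 1438683 did not (adjusted p = 0.0527). Over the alternatives that kept every array the highest adjusted p (limma) was 0.165 for 1454673 and 0.227 for 1438683, both without the variance trend. Beside this rise stands that of the differentiating muscle markers listed above, and their part in the Wasf2 result was not tested.

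**Figure D2:**
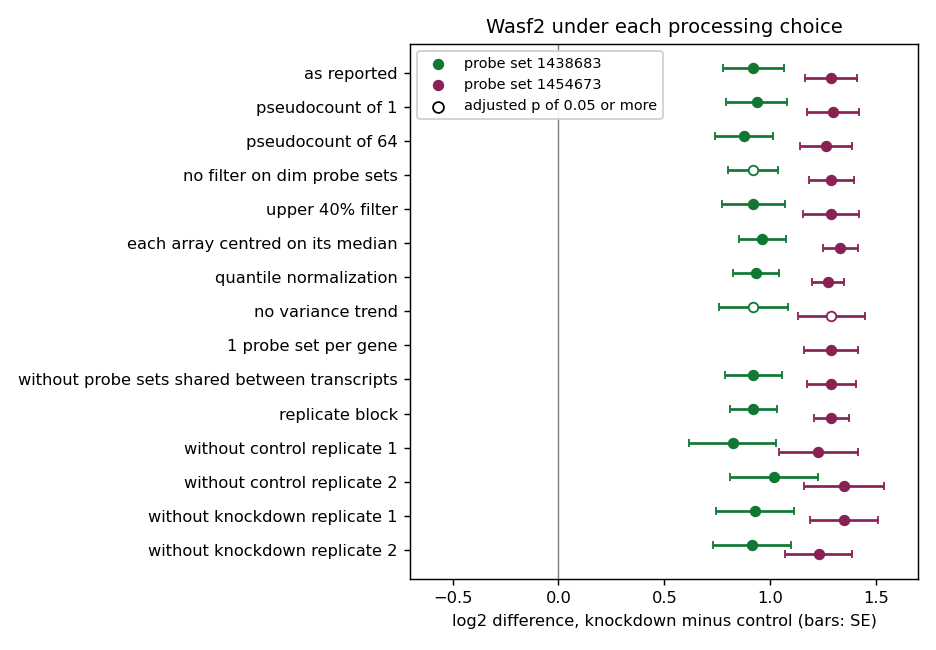
Log2 difference, knockdown minus control, of the 2 Wasf2 probe sets (points, with SE as bars) as reported and under each of 14 other processing choices; open points have an adjusted p of 0.05 or more. Every point lies between 0.82 and 1.35, and the open points are those without the variance trend and 1 without the filter; 1438683 has no value with 1 probe set per gene.

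The paralogue Wasf1 encodes WAVE1 and has 1 probe set, 1418545, which read 364.4 and 385.4 in control cultures against 398.4 and 465.2 under knockdown. The knockdown arrays were the higher ones without overlap, yet the log2 difference was 0.19 (SE 0.17, limma adjusted p = 0.656), with an interval of -0.19 to 0.57. That interval ends below the lower ends of both Wasf2 intervals, 0.61 and 1.02, though the difference between the genes was not itself tested.

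Wasf3, which encodes WAVE3, read 112.8 and 114.2 in control cultures against 84.7 and 77.8 under knockdown in probe set 1425061. The knockdown arrays were the lower ones here, at 71.6% of the control mean. The log2 difference of -0.41 did not pass (SE 0.33, limma adjusted p = 0.608), and its interval, -1.15 to 0.32, is the widest of the WASF genes at this low signal. Its other probe set, 1444243, read 5.0 to 14.1, in the background range on all 4 arrays.

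Nckap1 encodes the scaffold subunit that pairs with CYFIP in the complex. Its probe set 1452196 read 3941.2 and 4342.3 in control cultures against 4469.9 and 5089.6 under knockdown. The groups did not overlap, but the difference of 0.20 on the log2 scale was not past the test (SE 0.12, limma adjusted p = 0.462), with an interval of -0.06 to 0.47. The fitted differences of both Wasf2 probe sets lie above this interval.

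The ABI proteins join the WASF subunit to the rest of the complex. In Abi1, probe set 1423177 read 1646.7 and 1715.7 in control cultures against 1588.8 and 1534.9 under knockdown (log2 -0.11, interval -0.38 to 0.17). Probe set 1450890 overlapped between groups, with 1322.2 and 1513.9 against 1249.7 and 1423.2 (log2 -0.08, interval -0.39 to 0.22). In 1438506 knockdown replicate 2 stood low at 149.4, while the other 3 arrays read 241.2 to 284.8, and the log2 difference went from -0.36 to 0.02 without that array. The remaining Abi1 probe set, 1423178, read 34.5 and 45.5 in control cultures against 61.4 and 58.3 under knockdown, mostly in the background range, and was not tested. None of the Abi1 probe sets passed (limma adjusted p = 0.563 to 0.836).

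Abi2 had the next largest positive difference after Wasf2, in probe set 1433985, which read 243.9 and 341.5 in control cultures against 380.8 and 391.5 under knockdown. The knockdown arrays were above the controls, but the controls lay far apart, and the log2 difference of 0.40 did not pass (SE 0.20, limma adjusted p = 0.378, interval -0.04 to 0.84). This interval overlaps that of Wasf2 probe set 1438683, 0.61 to 1.23. Probe set 1436984 overlapped between the groups, with 613.7 and 636.1 against 670.0 and 615.7 (log2 0.04, interval -0.29 to 0.37). Probe set 1458053 lay in the background range on all 4 arrays.

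Wasl encodes N-WASP, which activates Arp2/3 outside the WAVE complex, and its 4 tested probe sets went different ways. Probe set 1426776 read 815.1 and 848.5 in control cultures against 767.5 and 897.0 under knockdown, a log2 difference of -0.0032 whose sign turned with median centring (0.039) and quantile normalization (0.0044). Probe set 1426777 was below the controls on both knockdown arrays, with 361.5 and 411.9 against 307.2 and 317.4 (log2 -0.29, interval -0.69 to 0.10). Probe set 1452193 read 288.7 and 442.3 in control cultures against 413.9 and 460.4 under knockdown (log2 0.28, interval -0.18 to 0.74). Probe set 1432155 read 64.5 to 97.7 (log2 0.19, interval -0.68 to 1.07). None passed (limma adjusted p = 0.477 to 0.996). The intervals of 1452193 and 1432155 overlap that of Wasf2 probe set 1438683, 0.61 to 1.23.

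Actr3 encodes ARP3, an actin-related subunit of the Arp2/3 complex, and its signals were similar in the 2 groups. Probe set 1452051 read 7173.0 and 7477.5 in control cultures against 7654.4 and 8005.3 under knockdown (log2 0.10, interval -0.15 to 0.34). Probe set 1426392 read 4799.4 and 5427.2 against 5075.9 and 5492.3 (log2 0.05, interval -0.21 to 0.31), and its sign turned with quantile normalization (-0.011). In 1434968 knockdown replicate 1 read 4412.7 and the other arrays 3251.8 to 3748.0 (log2 0.14, interval -0.18 to 0.46). None of the 3 passed (limma adjusted p = 0.708 to 0.898), and each interval ends below 0.61, the lower end of the smaller Wasf2 interval.

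**Figure D3:**
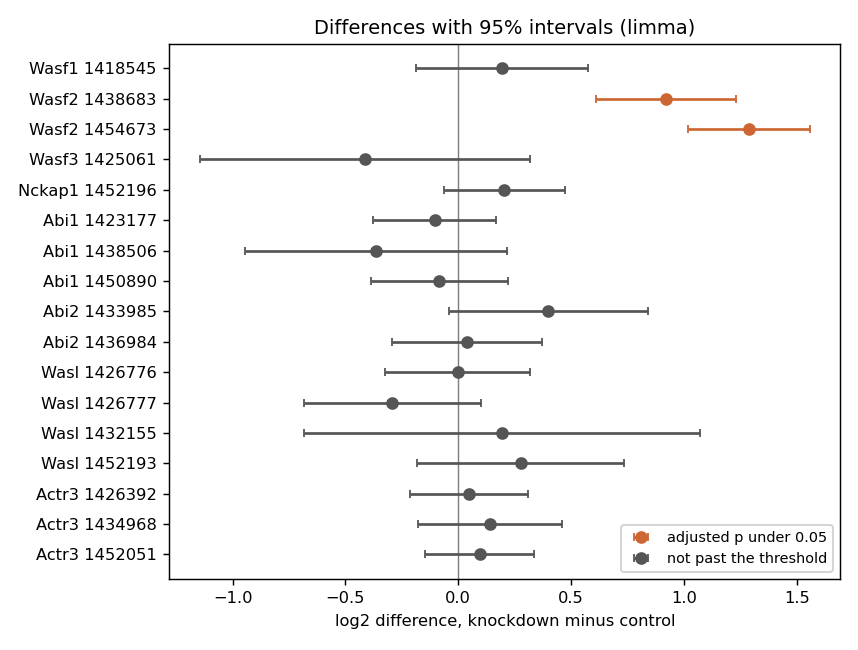
Log2 difference, knockdown minus control, of the 17 tested probe sets with 95% intervals from limma; orange marks an adjusted p under 0.05. The Wasf2 probe sets at 0.92 and 1.29 have intervals above 0, and the other 15 intervals include 0.

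Of the 17 tested probe sets, 6 had both knockdown arrays above both controls, 3 had both below and 8 overlapped. Over all tested probe sets 21.6% lay above without overlap and 24.0% below. With 2 arrays a group, such separation is common on this array, and among the members it was accompanied by a call in Wasf2 only.

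Among the other genes of the WAVE complex none passed, as in the partners of Wasf2 above. Brk1, its smallest subunit, read 2290.0 and 2260.0 in control cultures against 1998.0 and 2443.0 under knockdown in probe set 1423188 (log2 -0.04), and -0.11 was the difference in 1423189. All 3 probe sets of Cyfip2 were too dim to test. Of the blood-cell forms, Nckap1l differed by 0.34 (SE 0.41) and Abi3 by 0.26 (SE 0.30, limma adjusted p = 0.741), the latter -0.15 without control replicate 1. In all, 4 probe sets of this list were tested, with 0 higher and 0 lower (2.39% called over the array). At an unadjusted p under 0.05 there were also 0 (15.5% over the array).

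The Arp2/3 complex had no call in its other tested subunits. Arpc1b, Arpc3 and Actr3b had no probe set assigned to them alone, and Actr2 was not analysed, so the complex was covered only in part. For 5 genes, Arpc1a, Arpc2, Arpc4, Arpc5 and Arpc5l, 8 probe sets were tested. Of these 0 were higher and 0 lower (limma, also 0 at an unadjusted p under 0.05, against 2.39% and 15.5% over the array). Their log2 differences ran from -0.10 to 0.29, with a median of 0.07. The smallest p belonged to Arpc4, in a probe set, 1423589, that read 2369.1 and 2530.0 in control cultures against 2800.1 and 3077.0 under knockdown (log2 0.26, SE 0.12, adjusted p = 0.336).

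Among 26 tested probe sets of other nucleation-promoting factors 1 fell and 0 rose (3.85% called, against 2.39% over the array). The 1 that fell was of Wipf1, which encodes WIP, a partner that binds and stabilises WASP and N-WASP. Probe set 1436954 read 838.9 and 887.3 in control cultures against 488.3 and 411.2 under knockdown (log2 -0.92, SE 0.16, limma adjusted p = 0.0134). A second probe set, 1436953, read 747.1 and 611.8 against 439.4 and 509.1, also without overlap, and did not pass (log2 -0.50, adjusted p = 0.169). Its partner gene Wasl had no probe set that passed.

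The activator list holds Rac and Cdc42 genes and genes acting with them or with the WAVE complex. Among its 58 tested probe sets 1 rose and 1 fell (3.45% called, against 2.39% over the array). The scaffold gene Bcar1, which encodes p130Cas and links adhesion sites to Rac, rose in probe set 1439388 from 1558.7 and 1476.6 to 2520.8 and 2384.7 (log2 0.69, SE 0.12, limma adjusted p = 0.0171). This probe set is of the kind shared between transcripts. Its log2 difference lay between 0.65 and 0.73 without each array in turn. The other Bcar1 probe set, not of the shared kind, differed by 0.24 (limma adjusted p = 0.451). The tyrosine kinase gene Abl2, whose product binds actin and ABI proteins, fell in probe set 1445483 from 369.6 and 450.5 to 152.2 and 163.2 (log2 -1.29, SE 0.21, limma adjusted p = 0.0091). The other Abl2 probe sets differed by 0.02 and -0.29 and did not pass, so the probe sets of this gene disagree.

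Genes of filament turnover and capping held 3 of the 4 probe sets called higher among the other lists, and 55 of the 193 tested. These 3 probe sets belong to Capza2 and Pfn2 only. In either direction 7.27% of this list was called, against 2.39% over the array. Capping protein closes growing filament ends as a heterodimer of an alpha and a beta subunit, and the genes of its alternative alpha subunits, Capza1 and Capza2, went opposite ways. Capza2 rose in probe set 1423057 from 2413.7 and 2455.4 to 4820.0 and 4843.8 (log2 0.98, SE 0.11, limma adjusted p = 0.0014). In its probe set 1423058 it rose from 2677.4 and 2841.2 to 4006.3 and 4595.2 (log2 0.63, limma adjusted p = 0.0236). This difference lay between 0.54 and 0.73 without each array in turn. Capza1 fell in 1452038 from 4015.3 and 4385.9 to 2641.4 and 2701.5 (log2 -0.65, SE 0.12, limma adjusted p = 0.0176). In that probe set Capza1 differed by -0.71 to -0.59 without each array in turn. Its probe set 1439455 read 918.8 and 1218.5 against 676.6 and 845.0 (log2 -0.48, adjusted p = 0.205), below the controls as well. The difference between the 2 subunit genes was not itself tested. The beta subunit gene Capzb had 3 tested probe sets, with log2 differences of 0.03, 0.11 and -0.07, and none passed.

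Profilin 2, encoded by Pfn2, supplies actin monomers to nucleators. Probe set 1418210 rose from 157.2 and 154.9 to 296.2 and 335.1 (log2 0.94, SE 0.21, limma adjusted p = 0.0414). Its log2 difference lay between 0.86 and 1.03 without each array in turn. The other Pfn2 probe sets differed by 0.92 (adjusted p = 0.0652) and 0.33 (adjusted p = 0.563), both with the knockdown arrays above the controls.

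Formins and other linear nucleators had 0 calls in 23 tested probe sets (2.39% called over the array). At an unadjusted p under 0.05, 5 were higher and 2 lower, against 15.5% of all tested probe sets in either direction. At that level the other nucleation-promoting factors had 0 higher and 2 lower of 26, the activator list had 2 higher and 5 lower of 58, and the turnover and capping list 6 higher and 5 lower of 55. The 5 lower ones of the activator list include every probe set of Dock5, none of which passed (limma adjusted p = 0.059 to 0.113). Daam1, a formin gene of Wnt signalling, had the smallest p of the formin list. Its probe set 1431035 read 520.8 and 424.2 in control cultures against 223.5 and 314.5 under knockdown (log2 -0.79, SE 0.21, limma adjusted p = 0.0778). It passed with the upper 40% filter (-0.79, limma adjusted p = 0.0233), and without knockdown replicate 2 the log2 difference was -1.02. Its probe set 1455244 pointed the other way, with 680.6 and 651.1 against 825.5 and 813.2 (log2 0.29). The inhibitors of Arp2/3 and the genes of branch turnover had 0 calls in 19 tested probe sets (2.39% called over the array). At an unadjusted p under 0.05 they also had 0 (15.5% over the array). The smallest p there was that of Pick1, which encodes an Arp2/3 inhibitor, with 153.2 and 128.9 against 216.0 and 192.3 (log2 0.49, adjusted p = 0.372).

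Over these 7 lists together, 193 probe sets of 90 genes were tested, and 4 were higher and 3 lower, in 6 genes. Of all tested probe sets 2.39% were called in either direction, against 3.63% in these lists. The median log2 difference was 0.00 in the lists and -0.01 over all tested probe sets.

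**Figure D4:**
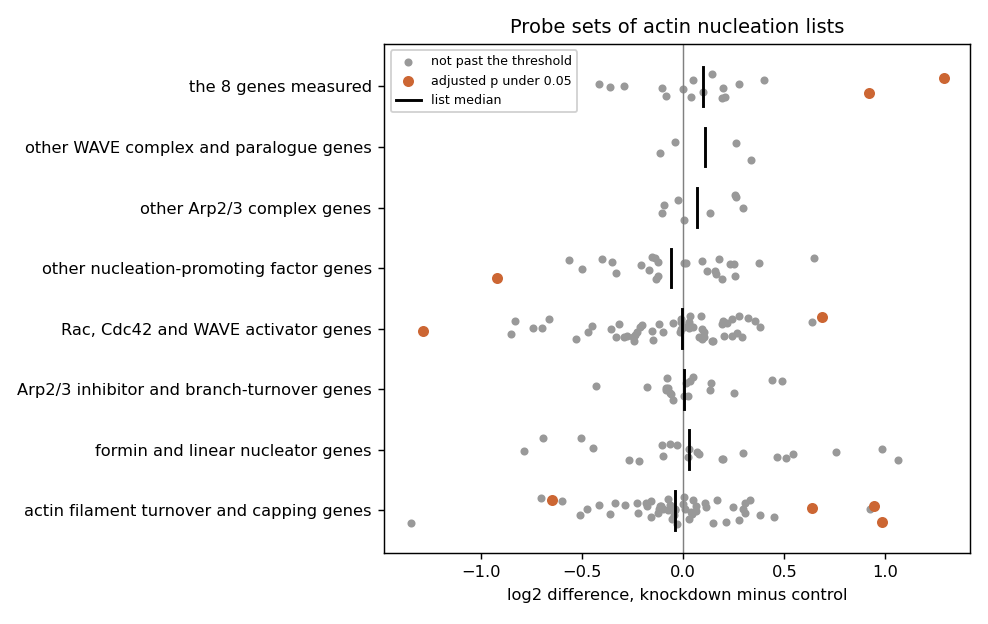
Log2 difference, knockdown minus control, of each tested probe set of the 8 measured genes and of 7 lists of other actin nucleation genes (points, scattered vertically within a row); orange marks an adjusted p under 0.05 and black ticks list medians. The medians lie between -0.06 and 0.11, and the called probe sets stand out singly.

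The 8 protein-coding genes nearest to Wasf2 in RefSeq order, 4 on each side, are Stx12, Fam76a, Fgr and Ahdc1 before it and Gpr3, Cd164l2, Map3k6 and Sytl1 after it. Of their 14 probe sets 10 were tested, and 0 were higher and 0 lower (limma, also 0 at an unadjusted p under 0.05, against 2.39% and 15.5% of all tested probe sets). Their log2 differences ran from -0.57 to 0.32. The adjacent gene Ahdc1 read 378.6 and 344.6 in control cultures against 369.5 and 275.3 under knockdown in probe set 1424956 (log2 -0.17, adjusted p = 0.747). Its probe set 1424957 read 208.4 and 223.1 against 171.8 and 121.4, without overlap (log2 -0.53, adjusted p = 0.347). The adjacent gene on the other side, Gpr3, lay in the background range on 2 of the 4 arrays.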

How the data were processed

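The deposited table holds a linear intensity for each probe set and array, which the authors computed using MAS5 within GCOS, as the submitters' processing notes state. How arrays were scaled is not given in the sources, and no further scaling was applied. MAS5 subtracts mismatch signals, which makes dim probe sets noisy. Of 45101 probe sets, 34945 were assigned to 1 gene, 932 to several genes and 64 were controls. Gene identifiers of 34741 matched a RefSeq table of GRCm38.p6, which changed 0 symbols. Promoter sequences are RefSeq's, for 7 of the 10 listed genes. As background, the 95th percentile of signal over 27 bacterial controls was used for each array.

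Signals were transformed as log2(signal + 16). Those among the brightest 60% by mean log2 signal (over a signal of 57.3) were tested, knockdown minus control, with limma 3.58.1 (lmFit, eBayes with a variance trend) in R 4.3.3, and p-values were adjusted over all 22893 (Benjamini-Hochberg, threshold 0.05). The residual degrees of freedom were 2, and the prior variance that limma drew from all tested probe sets counted for 9.6 more. Standard errors, intervals and p-values thus rest largely on that prior variance. An exact permutation test of a single value could not give a two-sided p under 0.333. The number of arrays limits the precision. The fit was tested on simulated data, whose noise depended only on the mean signal, as the variance trend assumes. That simulation does not test the calls made here. All listed genes are named with every probe set, and of each other list every gene with a call, or else the gene with the smallest p. Brk1, Cyfip2, Nckap1l, Dock5 and the neighbours of Wasf2 were named besides. The members and lists were chosen with earlier results of these data known. There were 14 alternatives.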

Additional observations from a re-analysis of the deposited data

How the results depend on the processing

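Of the counts over all probe sets (220 higher, 328 lower), no filter on dim probe sets gave 22 and 41, the upper 40% filter 359 and 591, and no variance trend 0 and 0 (limma, 2913 at an unadjusted p under 0.05). Median centring gave 401 higher and 333 lower, so 54.6% of calls were higher against 40.1% as reported. Without probe sets shared between transcripts 132 were higher, and with 1 probe set per gene 207 were lower. Without each array in turn the counts ran from 126 to 730 higher and from 171 to 1040 lower. Among alternatives that kept every array, the listed genes had 2 probe sets higher and 0 lower in all but 3. These were no filter (1 higher), no variance trend (0) and 1 probe set per gene (1, since Wasf2 then has a single probe set). The other actin lists (4 higher, 3 lower) had 1 and 0 without the filter, 0 and 0 without the trend, 7 lower with the upper 40% filter, and 2 to 4 higher and 2 to 10 lower without an array.

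With the replicate number as a block, 379 were higher and 478 lower, Wasf2 kept both calls, and the other actin lists had 5 lower. The same-numbered arrays did not deviate together (r = 0.0095 across probe sets, which are not independent replicates), so the number was not taken as a pairing.

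Signs turned only in probe sets that had not passed. Wasl 1426776 turned with median centring (0.039) and quantile normalization (0.0044), and Actr3 1426392 with quantile normalization (-0.011). Without each array in turn, log2 differences of either sign were seen in Wasl 1426776 (-0.11 to 0.11), 1432155 (-0.023 to 0.41) and 1452193 (-0.018 to 0.57), Actr3 1426392 (-0.040 to 0.14) and 1434968 (-0.054 to 0.34), Abi1 1450890 (-0.18 to 0.012) and 1438506 (-0.75 to 0.021), Abi2 1436984 (-0.021 to 0.098) and Abi3 1452928 (-0.15 to 0.68). The called probe sets of Wipf1, Bcar1, Abl2, Capza1 and Pfn2 lost their calls without the filter or the trend, as did Capza2 1423058. Capza2 1423057 lost its call without the trend only, and Daam1 1431035 passed with the upper 40% filter. The causes were not tested.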
